A study of Mus musculus with 14 samples.

Results

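Expression of 9 purinergic genes was examined in dorsal horn microglia: the ATP-gated channels P2rx4 and P2rx7, the G protein-coupled nucleotide receptors P2ry1, P2ry6, P2ry12, P2ry13 and P2ry14, the adenosine receptor Adora3 and the ectonucleotidase Entpd1 (CD39). The genes were chosen by symbol, and all 9 were found among 14329 genes in the RNA-seq values of 14 libraries. CD45low CD11b+ CX3CR1+ cells were sorted from the dorsal lumbar spinal cord of 6-month-old mice, collected at day 5 of serum transfer (ST). WT mice were compared with TASTPM mice, heterozygous transgenic mice that carry human APP with the Swedish mutation (the TAS10 line) driven by the murine Thy-1 promoter, a promoter used for expression in neurons, on a C57BL/6 background. Each genotype received either K/BxN serum, which transfers an arthritis with joint pain, or control serum. The groups were WT Control ST (n = 3), WT K/BxN ST (n = 4), TASTPM Control ST (n = 3) and TASTPM K/BxN ST (n = 4). Mice of both sexes were used, and sex could not be assigned to libraries here.

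ATP and ADP released by neurons and glia act on microglia through P2 receptors, and ectonucleotidases on the cell surface turn these nucleotides into adenosine, which acts on a separate family of receptors. P2Y12 senses ADP and steers microglial processes towards its source, and P2Y13 is a closely related ADP receptor. P2X4 and P2X7 open cation channels when ATP binds, and P2X4 in spinal microglia is known for its role in neuropathic pain, while P2X7 is known for driving release of interleukin-1β.

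P2ry12 and P2ry13 are neighbours on mouse chromosome 3. In GRCm39, P2ry12 lies on the minus strand at chr3:59123682-59170429 and P2ry13 on the same strand at chr3:59114539-59118304. Together with P2ry14 (chr3:59021276-59061134) both sit inside Med12l, which is encoded on the opposite strand, and 294 exonic bases of P2ry12, 9.17% of its exonic length, are shared with exons of Med12l. Because these 2 receptors gave the highest levels and varied together across libraries, the 250 bases before their RefSeq start sites are shown. The sequences are from the RefSeq promoter table of build GRCm38.p6, each read 5′ to 3′ on the strand of the gene and matched exactly once on chromosome 3 of GRCm39, P2ry12 at chr3:59170407-59170656 and P2ry13 at chr3:59118304-59118553. Capitals mark the letters GAGGAA, the core recognised by PU.1, a transcription factor of myeloid cells.

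P2ry12: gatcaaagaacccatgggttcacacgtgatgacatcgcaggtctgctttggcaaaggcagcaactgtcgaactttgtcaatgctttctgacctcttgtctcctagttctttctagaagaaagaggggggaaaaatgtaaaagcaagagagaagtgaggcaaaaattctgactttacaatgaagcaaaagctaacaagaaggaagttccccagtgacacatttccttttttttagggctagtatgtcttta

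P2ry13: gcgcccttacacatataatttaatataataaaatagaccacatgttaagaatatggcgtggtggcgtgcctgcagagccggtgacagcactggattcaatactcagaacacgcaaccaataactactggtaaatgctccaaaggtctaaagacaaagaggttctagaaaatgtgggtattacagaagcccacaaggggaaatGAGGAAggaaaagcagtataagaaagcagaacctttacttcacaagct

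GAGGAA occurred in the P2ry13 window close to the start, and was not matched in the P2ry12 window on either strand. It was found on either strand in windows of 4 of the 8 genes with an entry (P2ry13, P2ry14, Entpd1 and Adora3). These 8 genes have 13 windows, of which 7 held it, 4 of them windows of P2ry14, and it was in 23.25% of 32851 promoter windows of the same length. The P2ry14 windows at chr3:59038750-59038999 and chr3:59038540-59038789 overlap and hold the same match, which is counted in both. An AP-1 site, TGANTCA, was held by 4 of the 13 windows, of 3 genes (P2rx7, P2ry14 and Adora3), and by 6.749% of all windows. An ETS-IRF composite element (2.301% of windows) and a MEF2 site (3.202%), searched likewise, were matched in windows of 0 of the 8 genes. The letters are a description of these windows and show no binding.

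The libraries held 14223015 to 20239175 reads on genes. Values are normalized counts (reads of a gene over a scaling factor of the library). In 4 K/BxN ST libraries (TASTPM replicates 1 and 2 and WT replicates 1 and 2) markers of monocytes and neutrophils took 0.646 to 2.36% of the reads, compared with 0.0295 to 0.0733% in the other 10 libraries, although the sort had been gated on CD45low CX3CR1+ cells and the study describes its flow cytometry gate as also Ly6C- and CCR2-, markers of inflammatory monocytes. All 10 monocyte markers were higher in each of these 4 libraries than in any other, as were 3 of 12 neutrophil markers. The summed monocyte level was 482 to 181633 normalized counts in TASTPM K/BxN ST, 287 to 161699 in WT K/BxN ST, 568 to 1320 in TASTPM Control ST and 351 to 422 in WT Control ST. The neutrophil sum was 7120 to 209580, 9734 to 235895, 4066 to 7149 and 7924 to 11988, in the same order. WT K/BxN ST replicate 2 differed from the other 3 of these libraries in its neutrophil sum, which was 10440, within the 4066 to 11988 of the other 10 libraries, against 205766 to 235895 in those 3. Markers of dendritic cells (6 of 8 with values) summed to 1141 to 9078 in the 4 libraries and 36.9 to 373 in the other 10, with 4 of the 6 higher in each of the 4 than in any other. Markers of border-associated macrophages (6 of 7) summed to 1154 to 3051 against 0 to 955, with 2 of the 6 so separated. Of the 12 microglia markers, 9 were lower in each of these 4 libraries than in any of the other 10. These libraries are called marker-high below, and values are also given without them. All 12 microglia markers had reads in every library, with a summed level of 344765 to 1299520. Of 9 platelet and megakaryocyte markers, 2 had values, summing to 270 to 982.

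P2ry12 was the most abundant of the 9 genes, and the order of levels per length of exon spanned over 4 orders of magnitude. Per kilobase of exon, the mean over 14 libraries was 36605 normalized counts for P2ry12, which ranked 10 of 14268 genes. P2ry13 followed at 13108, Entpd1 at 2150 and P2ry6 at 980. Each of these 4 genes was above the next in the order in 14 of 14 libraries. P2rx7 (460), P2rx4 (403) and Adora3 (352) followed with overlapping levels, since P2rx7 was above P2rx4 in 9 of 14 libraries and P2rx4 above Adora3 in 8. P2ry1 (22.1) and P2ry14 (3.41) were lowest, with at least 10 reads in 5 and 6 libraries. Thus 7 genes passed the filter of 10 reads in at least 7 libraries and were tested among 12645 genes, while P2ry1 and P2ry14 were fitted in a second table with other listed genes that failed the filter.

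**Figure D1:**
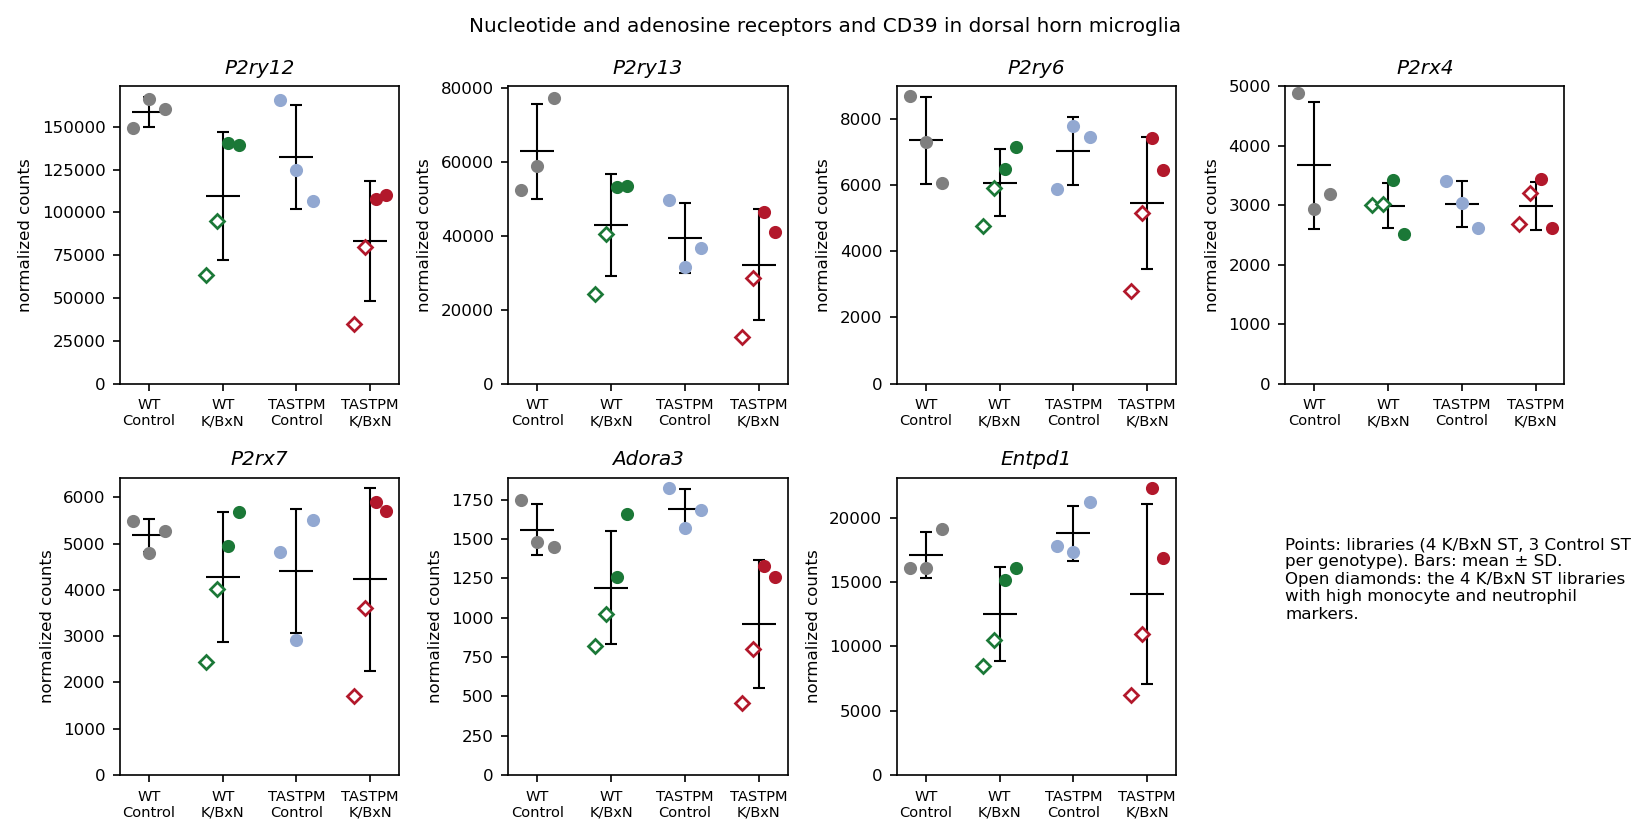
Normalized counts (y axis, linear from 0) of the 7 genes that passed the filter, by group (x axis). Points are libraries, bars are the mean ± SD (n = 3 for Control ST and n = 4 for K/BxN ST), and open diamonds are the 4 marker-high libraries. For P2ry12, Entpd1 and Adora3 the diamonds sit below every other library, as for 2.51% of all genes tested (P2ry12 at 34656 to 94752 against 106484 to 166138), and for P2rx4 they lie among the rest.

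Serum transfer was compared first, to ask whether the receptors of microglia differ between mice with K/BxN arthritis and mice given control serum. All 7 tested genes had lower fitted levels in K/BxN ST than in Control ST in both genotypes, from -0.60 (P2ry12) to -0.26 (P2rx4) on the log2 scale in WT and from -0.93 (Adora3) to -0.02 (P2rx4) in TASTPM. The median of the 7 was -0.43 in WT and -0.44 in TASTPM, and that of all genes tested was 0.06 and 0.01. None of the 7 was called at an adjusted p under 0.05 and an absolute log2 fold change over 1, with 0.00791% of all genes called in WT and 0% in TASTPM. At an unadjusted p under 0.05, limma gave 0 of the 7 in WT (2.36% of all genes on the lower side) and 1 in TASTPM (1.6%), which was Adora3, and edgeR and DESeq2 with the same filter called 0 of the 7 in either genotype. Of all genes, edgeR called 0% in both, and DESeq2 with this filter called 1% (127 genes) in WT and 0.127% (16 genes) in TASTPM. The 12 microglia markers moved likewise, all 12 with lower fitted levels in both genotypes and medians of -0.48 and -0.51, and their part in the result was not tested. In bulk samples, fewer cells of a type and less RNA per cell cannot be told apart.

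Among the ADP receptors, P2ry12 in WT was 149159, 166138 and 160388 normalized counts in Control ST and 63550, 94752, 140287 and 139465 in K/BxN ST. Every WT K/BxN ST library was below every WT Control ST library, and the 2 lowest were the marker-high ones. P2ry12 was the only 1 of the 9 genes with such a separation in WT, and 3.71% of all genes tested had it. The mean was 158562 ± 8636 (SD, n = 3) in Control ST and 109513 ± 37303 (SD, n = 4) in K/BxN ST, a log2 fold change of -0.60 (SE 0.40, limma adjusted p = 0.764), and permuting the libraries gave an exact two-sided p of 0.114, so the difference was not called. In TASTPM, P2ry12 was 165494, 124761 and 106484 in Control ST and 34656, 79940, 107606 and 110310 in K/BxN ST, where the groups overlapped. The log2 fold change there was -0.78 (SE 0.40, limma adjusted p = 0.964; exact p = 0.171). Without the marker-high libraries the log2 fold changes of P2ry12 were -0.18 (SE 0.18) in WT and -0.26 (SE 0.18) in TASTPM, and the 2 remaining WT K/BxN ST libraries were below the 3 of WT Control ST, as for 8.84% of all genes.

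P2ry13 was 52403, 58930 and 77227 in WT Control ST against 24213, 40479, 53234 and 53303 in WT K/BxN ST. In TASTPM it was 49718, 31503 and 36736 in Control ST and 12599, 28431, 46350 and 41015 in K/BxN ST. The groups overlapped in both genotypes, with log2 fold changes of -0.60 (SE 0.40, limma adjusted p = 0.764) in WT and -0.43 (SE 0.40, limma adjusted p = 0.964) in TASTPM. Without the marker-high libraries these were -0.22 and 0.18, so the direction in TASTPM turned.

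P2ry6, the receptor for UDP that is linked to phagocytosis by microglia, was 8706, 7295 and 6066 in WT Control ST against 4770, 5900, 6487 and 7147 in WT K/BxN ST. In TASTPM it was 5871, 7793 and 7450 in Control ST against 2811, 5151, 7433 and 6464 in K/BxN ST. The groups overlapped in both genotypes, and the lowest library of each K/BxN ST group was a marker-high one. The log2 fold changes were -0.28 (SE 0.28) and -0.44 (SE 0.28), and without the marker-high libraries they were -0.10 and -0.01.

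P2rx4 was the steadiest of the 7 genes, with 1.94-fold between its lowest and highest library against 3.10 to 6.13-fold for the other 6. It was 4883, 2934 and 3178 in WT Control ST against 2999, 3022, 3429 and 2515 in WT K/BxN ST. In TASTPM it was 3400, 3039 and 2619 in Control ST and 2688, 3204, 3443 and 2606 in K/BxN ST. All 4 groups overlapped, and the library at 4883 stood above all others. The log2 fold changes were -0.26 (SE 0.20) in WT and -0.02 (SE 0.20) in TASTPM, and without WT Control ST replicate 1, the library at 4883, the former was -0.04.

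P2rx7 was 5491, 4797 and 5266 in WT Control ST against 2440, 4023, 4951 and 5688 in WT K/BxN ST. In TASTPM it was 4818, 2915 and 5512 in Control ST and 1699, 3611, 5900 and 5701 in K/BxN ST. The 2 K/BxN ST libraries of TASTPM that were not marker-high were above all 3 of Control ST, as for 9.46% of all genes, and the marker-high replicate 1 was below them. Log2 fold changes were -0.34 (SE 0.39) in WT and -0.17 (SE 0.39) in TASTPM, and 0.04 (SE 0.24) and 0.44 (SE 0.24) without the marker-high libraries (limma adjusted p = 1 and 0.996).

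Adora3, a receptor for adenosine that couples to inhibitory G proteins, was 1822, 1567 and 1685 in TASTPM Control ST and 460, 801, 1326 and 1258 in TASTPM K/BxN ST. Every K/BxN ST library was below every Control ST library, which held for 1 of the 9 genes and for 2.74% of all genes tested. The mean was 1691 ± 128 (SD, n = 3) in Control ST and 961 ± 408 (SD, n = 4) in K/BxN ST, with a log2 fold change of -0.93 (SE 0.33, unadjusted p = 0.0132, limma adjusted p = 0.964), and the exact two-sided p over the 35 splits was 0.0857. The 2 remaining libraries, 1326 and 1258, were below all 3 controls, as for 9.32% of all genes, with a log2 fold change of -0.39 (SE 0.22, limma adjusted p = 0.996). In WT, Adora3 was 1748, 1482 and 1447 in Control ST and 821, 1026, 1259 and 1656 in K/BxN ST, where 3 of 4 libraries were below the controls and the log2 fold change was -0.43 (SE 0.33). Of the exonic bases of Adora3, 22.1% are shared with other genes of the same strand (Tmigd3 and Gm53046), so its reads could be split between them.

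Entpd1, which hydrolyses ATP and ADP at the cell surface, was 16122, 16067 and 19136 in WT Control ST against 8447, 10487, 15177 and 16072 in WT K/BxN ST. In TASTPM it was 17777, 17338 and 21264 in Control ST and 6253, 10990, 22333 and 16856 in K/BxN ST. In both genotypes 3 of 4 K/BxN ST libraries were below all controls, and in TASTPM the remaining one was the highest of the 14. Log2 fold changes were -0.49 (SE 0.35) in WT and -0.56 (SE 0.35) in TASTPM, and -0.13 and 0.05 without the marker-high libraries, so the direction in TASTPM turned.

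**Figure D2:**
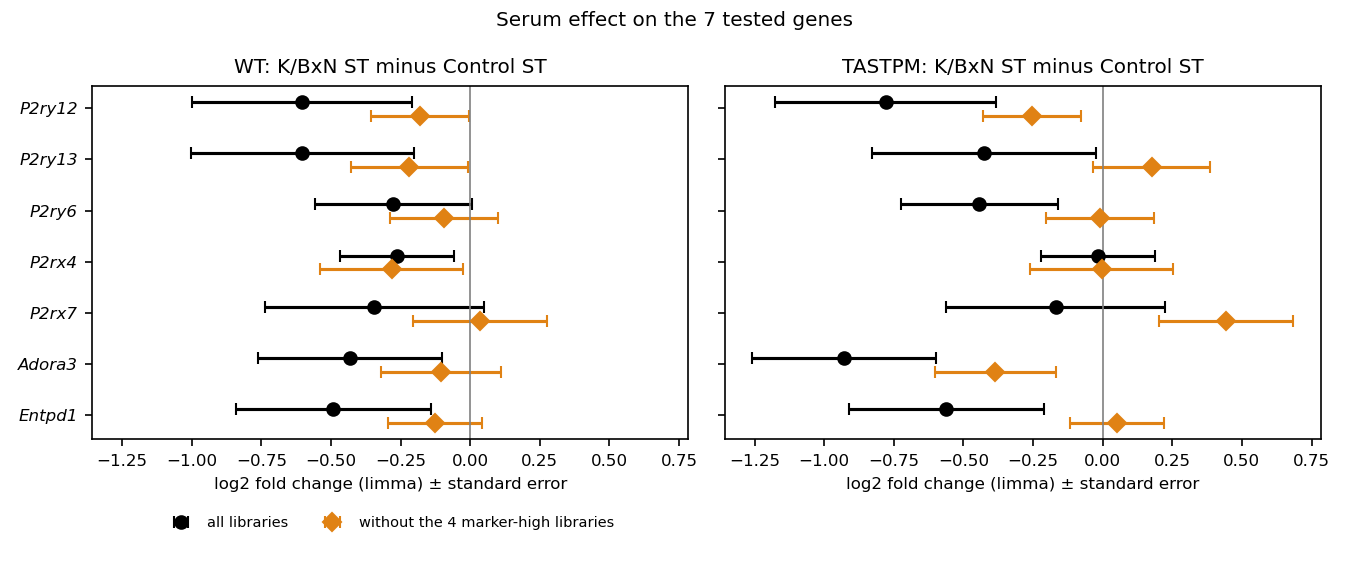
Log2 fold change of K/BxN ST against Control ST (x axis, limma, ± standard error) for the 7 tested genes (y axis) in WT and in TASTPM, over all 14 libraries (black circles) and without the 4 marker-high libraries (orange diamonds). With all libraries each estimate is below 0, and without the 4 libraries Adora3 and P2ry12 in TASTPM remain at -0.39 and -0.26 while P2rx7 in TASTPM is at 0.44.

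With the serum effect averaged over the genotypes, Adora3 (-0.68, SE 0.23) and P2ry12 (-0.69, SE 0.28) had the largest fitted differences and the smallest p values of the 7. Their unadjusted p were 0.0108 and 0.0263, with 3.46% of all genes under 0.05 on the lower side, and their limma adjusted p were 0.530 and 0.536. Permutation of the libraries within genotype gave two-sided exact p of 0.0131 for Adora3 and 0.0171 for P2ry12, not adjusted for the 90 permutation tests run, of which 45 were on this scale. Without the marker-high libraries the averaged effects were -0.25 (SE 0.15, limma adjusted p = 0.966) for Adora3 and -0.22 (SE 0.12, the same adjusted p) for P2ry12. The other 5 genes ranged over all libraries from -0.53 (Entpd1) to -0.14 (P2rx4). limma and edgeR called 0 of the 7, with 0% of all genes called by either, and DESeq2 with the filter called 0 of the 7 and 1.42% of all genes. The difference of the serum effect between genotypes was itself tested as an interaction. It ranged from -0.50 (Adora3, SE 0.47) to 0.25 (P2rx4, SE 0.29), and limma called 0 of 7 genes (0% of all genes; 0 of 7 at an unadjusted p under 0.05, against 3.04% of all genes, and 0 of the 7 by edgeR or by DESeq2 with the filter, which called 0.0949% of all genes), so no difference between genotypes in the response to serum was detectable.

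P2ry1 and P2ry14 were found in few libraries, and only some of these held both. P2ry1, an ADP receptor also found on platelets, was 878 and 211 normalized counts in the marker-high TASTPM libraries, 259 and 124 in the marker-high WT libraries and 0 to 15.5 in the other 10. P2ry1 was thus higher in each marker-high library than in any other, as were 8.56% of the 14329 genes, and was 0 in all 3 WT Control ST libraries. Adora2b, the low-affinity adenosine receptor, did the same, with 448 to 1433 normalized counts in these 4 libraries and 0 to 1.04 in the other 10. Monocyte, dendritic cell and border-associated macrophage markers were high in the same 4 libraries, as given above, and their part in the P2ry1 and Adora2b reads was not tested. The mean of P2ry1 in WT K/BxN ST was at least 35.2-fold higher than in WT Control ST, with the group at 0 set to 3 reads per library. This rests on the marker-high libraries. Without WT K/BxN ST replicate 1 it was at least 15.3-fold, and without both marker-high libraries the mean was 0.597, under the floor of 2.73, so no fold is given. The libraries overlapped at 0, and the second table gave a limma adjusted p of 0.756 (exact p = 0.257). Of the exonic bases of P2ry1, 21.8% are shared with Gm37035 on the opposite strand, and the sources used here do not give whether reads were counted by strand.

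P2ry14, the receptor for UDP-glucose, did not follow the marker-high libraries. The TASTPM K/BxN ST libraries held 104, 29.5, 146 and 44.0 normalized counts, against 109, 0 and 0 for TASTPM Control ST. The WT K/BxN ST libraries held 105, 0, 0 and 0, against 0 in all 3 of WT Control ST. At least 3 reads, the floor taken for detection, were thus present in 4 of 4, 1 of 3, 1 of 4 and 0 of 3 libraries. Under K/BxN ST the log2 fold change of TASTPM against WT was 4.40 on the scale with 1 added to each count, on which it depends (SE 1.73, unadjusted p = 0.0226, limma adjusted p = 1.000; exact p = 0.114), and 1 WT library lay within the range of TASTPM. With all genes kept whatever their reads, DESeq2 called both P2ry1 and P2ry14 for serum in WT (1.92% of all genes), serum averaged (3.06%) and genotype under Control ST (0.586%), P2ry14 alone for the interaction (0.251%) and neither for serum in TASTPM (0.614%) or genotype under K/BxN ST (0%). In each of those comparisons 1 group was at or near 0 for the gene called. Depth limits this comparison, since a library at 0 still allows up to 3 reads.

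**Figure D3:**
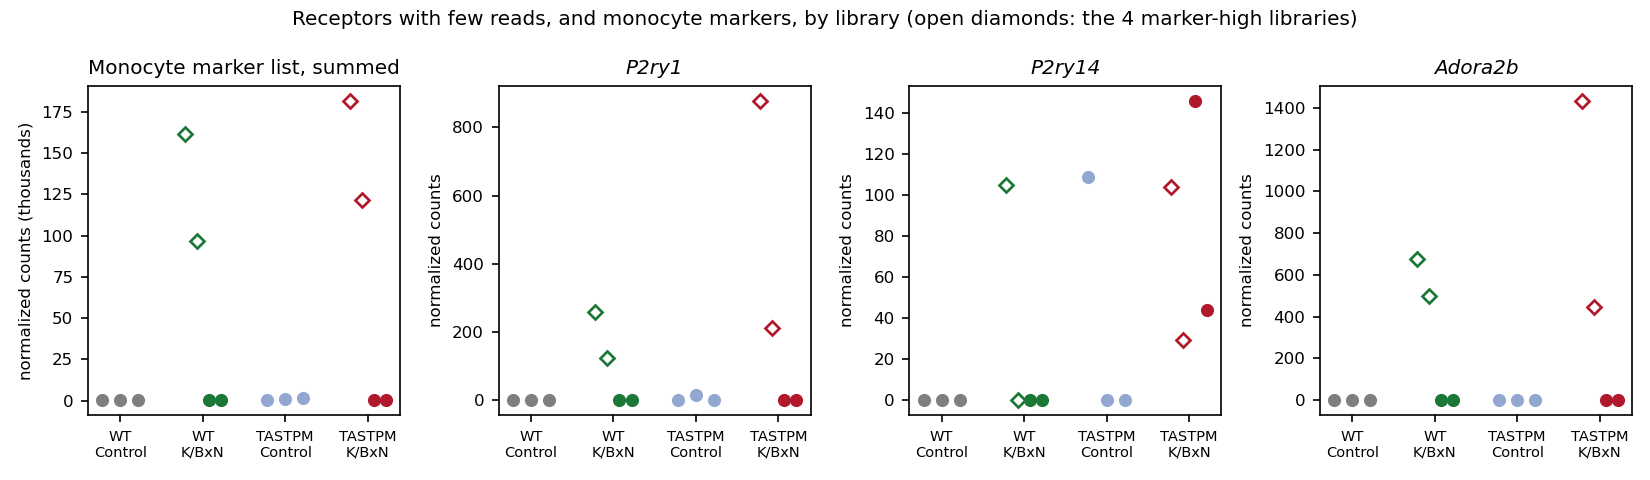
Summed monocyte markers (in units of 1000 normalized counts) and the normalized counts of P2ry1, P2ry14 and Adora2b (y axes) by group (x axis), each point a library and open diamonds the 4 marker-high libraries. P2ry1 and Adora2b sit at 124 to 878 and 448 to 1433 in the diamonds and near 0 elsewhere, while P2ry14 is present in all 4 TASTPM K/BxN ST libraries, 2 of which are not marker-high.

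Genotypes were compared next, under each serum, to ask whether microglia of TASTPM mice differ in these receptors. Under Control ST, P2ry13 was lower in each TASTPM library (31503 to 49718) than in each WT library (52403 to 77227). Such a separation on the lower side held for 1 of the 9 genes and for 4.71% of all genes tested. The mean was 39319 ± 9378 (SD, n = 3) in TASTPM and 62853 ± 12869 (SD, n = 3) in WT, a log2 fold change of -0.68 (SE 0.43, limma adjusted p = 0.905; exact p = 0.1, the lowest possible with 3 libraries a group). Without the marker-high libraries, which are not in these groups but share the estimate of spread, the same difference had an unadjusted p of 0.00372 (6.1% of all genes under 0.05) and a limma adjusted p of 0.646. With the marker score as covariate the unadjusted p was 0.0288 (7.58% of all genes) and centred on the microglia markers 0.0383 (3.6%), with limma adjusted p of 0.595 and 1.000. P2ry12 was 132246 ± 30209 (SD, n = 3) and 158562 ± 8636 (SD, n = 3), with 1 TASTPM library within the WT range, and Entpd1 (0.13, SE 0.37) and Adora3 (0.12, SE 0.35) had fitted differences on the other side. limma called 0 of the 7 (0% of all genes), also at an unadjusted p under 0.05 over all libraries (5.57% of all genes). Neither edgeR (0%) nor DESeq2 with the filter (0.324%) called any of the 7.

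Under K/BxN ST the fitted differences of TASTPM against WT ran from -0.51 (P2ry13, SE 0.37) to 0.06 (Entpd1, SE 0.32). The groups overlapped for all 9 genes, while 0.672% of all genes had every TASTPM library below every WT library and 1.16% every one above. limma called 0 of the 7, with 0% of all genes called and 0 of the 7 at an unadjusted p under 0.05 (1.91% of all genes), and edgeR and DESeq2 with the filter called 0 of the 7 and 0% of all genes. Without TASTPM K/BxN ST replicate 1, which is marker-high, the difference of P2ry12 moved from -0.46 (SE 0.37) to -0.08 and that of P2ry13 to -0.11. Without all 4 marker-high libraries they were -0.36 (SE 0.19) and -0.29 (SE 0.23), with a limma adjusted p of 1 for both. The 2 TASTPM libraries left, at 107606 and 110310 for P2ry12, were then below the 2 of WT, at 140287 and 139465, as held for 17% of all genes in these libraries. Entpd1 lay the other way, at 22333 and 16856 in TASTPM against 15177 and 16072 in WT, a difference of 0.31 (SE 0.18). P2rx7 was at 0.13 (SE 0.26), P2rx4 and P2ry6 were at 0.03 and Adora3 was at -0.16.

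Because the microglia markers themselves varied between libraries, each gene was also set against the mean log2 level of the 12 markers in its library. On this scale the median log2 difference of all genes was 0.56 in WT and 0.57 in TASTPM for the serum effect and 0.25 and 0.26 for genotype under Control ST and K/BxN ST, so a gene at 0 on this scale moved with the markers and a typical gene lay above them. P2ry12 exceeded the marker mean by 1.02, 1.13, 1.01 and 0.95 (log2) in the TASTPM K/BxN ST libraries. In the WT K/BxN ST libraries it exceeded it by 1.22, 1.27, 1.19 and 1.23. Every TASTPM library was below every WT library, marker-high or not, and the difference was -0.20 (exact p = 0.0286 over 70 splits, the lowest possible with 4 libraries a group). P2ry13 showed the same order, at -0.44, -0.36, -0.21 and -0.47 in TASTPM and -0.17, 0.04, -0.20 and -0.16 in WT, a difference of -0.25 (exact p = 0.0286). The nearest P2ry13 libraries of the 2 groups were only 0.01 apart. These 2 of the 9 genes compare with 0.214% of all genes tested separated in that direction. Since the median gene lay 0.26 higher in TASTPM on this scale, that share is no measure for genes that move with the markers. P2ry12 and P2ry13 also varied together (r = 0.94 over 14 libraries), so they are not independent. On the same scale limma gave adjusted p of 1.000 for both. In Control ST libraries the same difference was -0.08 for P2ry12 (exact p = 0.6) and -0.48 for P2ry13 (exact p = 0.2), and both genes overlapped between the genotypes.

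The serum effect on this scale was smaller for most genes. P2ry12 averaged over the genotypes was at -0.16 (exact p = 0.0204), and in TASTPM 3 of 4 K/BxN ST libraries were below all controls. Adora3 in TASTPM was -5.21, -5.51, -5.34 and -5.50 after K/BxN serum against -5.09, -5.08 and -4.89 after control serum, again with no overlap. That difference was -0.37 (exact p = 0.0571; limma adjusted p = 0.672). Of all genes tested, 0.214% separated in this direction on a scale where the median gene lay at 0.57. Adora3 in WT was at 0.08 with overlapping groups, and averaged over the genotypes it was at -0.15 (exact p = 0.205). Between genotypes under Control ST, Adora3 was higher in each TASTPM than in each WT library on this scale, by 0.33 (exact p = 0.1), as were 10.3% of all genes. The serum effect on P2rx7 was 0.28 averaged over the genotypes (exact p = 0.0351), below the 0.57 of the median gene. For Entpd1 the serum effect was 0.02 in WT and -0.00083 in TASTPM. Its difference of TASTPM against WT was 0.34 under Control ST (exact p = 0.2) and 0.32 under K/BxN ST (exact p = 0.0857), near the 0.25 and 0.26 of the median gene. These exact p are not adjusted, and 4 of the 45 tests on this scale were under 0.05.

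**Figure D4:**
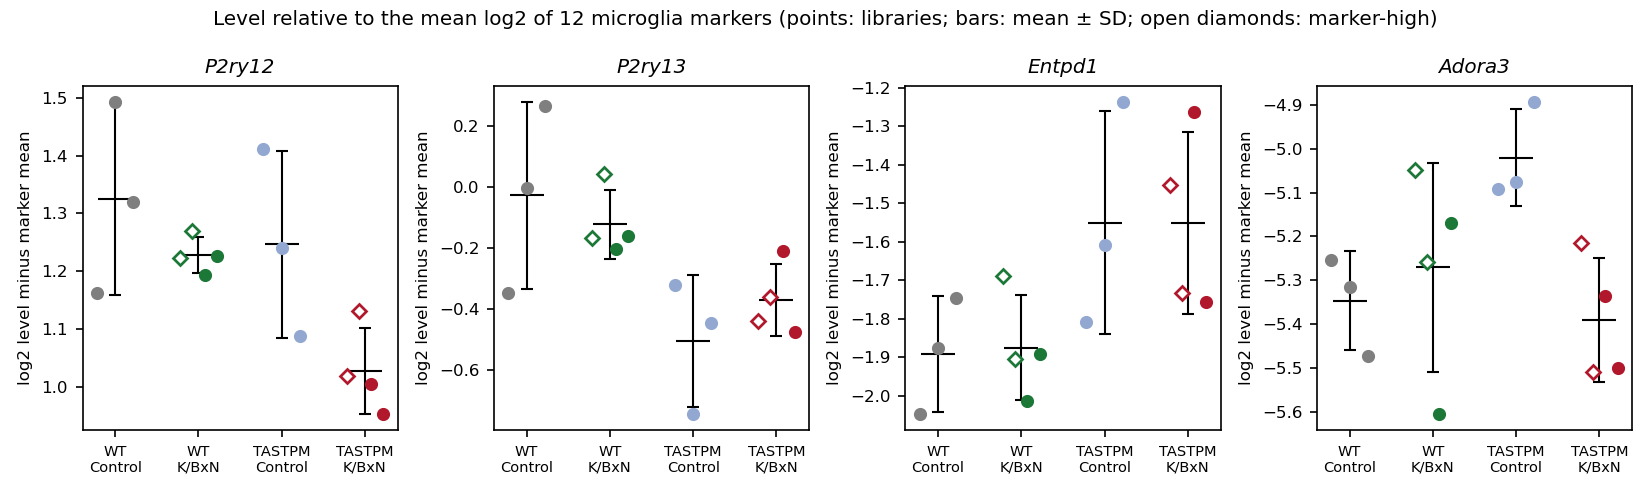
Log2 level of P2ry12, P2ry13, Entpd1 and Adora3 minus the mean log2 of 12 microglia markers in the same library (y axis) by group (x axis). Points are libraries, bars are the mean ± SD and open diamonds the marker-high libraries. For P2ry12 and P2ry13 the 4 TASTPM K/BxN ST points lie below the 4 WT K/BxN ST points (P2ry12 at 0.95 to 1.13 against 1.19 to 1.27), and for Adora3 they lie below the 3 TASTPM Control ST points.

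Across the 14 libraries the genes other than P2rx4 varied together, and less so once the marker-high libraries were left out. Pearson r on the log2 scale was 0.76 to 0.94 over the 15 pairs without P2rx4, and -0.53 to 0.71 over the 10 libraries that were not marker-high. P2ry12 and P2ry13 had the highest r in both cases (0.94 and 0.71), and P2ry12 and Entpd1 the lowest over the 10 (-0.53). Pairs with P2rx4 had r of 0.18 to 0.34 over the 14 libraries and -0.12 to 0.34 over the 10. The genes most like each receptor were named by the same measure. They were Gpr34, a lysophosphatidylserine receptor, for P2ry12 (r = 0.99 over 14 libraries and 0.97 over 10), and the fractalkine receptor Cx3cr1, whose product was used in the sort, for P2ry13 (0.98 and 0.94). For P2rx7 it was Csf1r, the receptor for CSF1 and interleukin-34 (0.98 and 0.95), and for P2rx4 it was Rnf7 (0.88 and 0.95). P2ry6 was closest to the lysosomal protease gene Lgmn (0.94), Entpd1 to Serinc3 (0.96) and Adora3 to F11r (0.95), and over the 10 libraries these fell to 0.58, 0.40 and 0.47. Next in rank were F11r and Marcks for P2ry12, Irf8 and Rtn4rl1 for P2ry13, Daglb for P2rx7, Laptm5 and Ltc4s for P2ry6, Havcr2 and Tlr3 for Entpd1 and Yae1d1 and Lgmn for Adora3, with 2510046G10Rik and Klhdc1 for P2rx4. The closest gene of any fixed list was Siglech for P2ry6 (0.91 over 14 libraries and 0.25 over 10) and Entpd1 (0.93 and 0.03), Sall1 for Adora3 (0.93 and 0.20) and P2rx1 for P2rx4 (0.72 and 0.74). These values describe libraries that share groups and sorting, and carry no test.

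The remaining purinergic genes had few reads or gave no calls. Of 13 other receptors, 5 had values and 4 were tested. P2ry10b had group means of 524 to 746 normalized counts, P2rx1 of 113 to 204, Adora1 of 18.8 to 234 and P2ry2 of 16.9 to 97.7. None of the 4 was called in any comparison. Of the genes for nucleotide release (channels and the vesicular transporter), 8 of 9 were tested and 0 were called. Gja1, the gap junction gene better known from astrocytes, was 127, 225 and 36.3 in WT Control ST and 0, 38.9 and 0 in TASTPM Control ST, a log2 fold change of -4.91 (SE 1.86, limma adjusted p = 0.798), and its interaction was 7.68 (SE 2.46, adjusted p = 0.999). WT K/BxN ST also had Gja1 libraries at 0, and both values depend on the 1 added to each count. Slc17a9, the vesicular nucleotide transporter, had fitted serum effects of 1.07 (SE 0.56) in TASTPM and 0.68 (SE 0.40) averaged, and 1.48 (SE 0.68) and 1.14 (SE 0.48) without the marker-high libraries (limma adjusted p = 0.996 and 0.966). The channel genes named by the same rule were Calhm6 (-0.75, SE 0.40, genotype under Control ST), Lrrc8a (-0.69, SE 0.44, serum averaged) and Lrrc8c (2.76, SE 2.25, serum in WT). Lrrc8c was at 0.39 (SE 2.49) and Lrrc8a at -0.84 (SE 0.59) without the marker-high libraries. A WT Control ST library was at 0 for Lrrc8c, so its value also depends on the 1 added.

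Among ectonucleotidases and genes that handle adenosine, 12 of 22 were tested and limma called 0 in each comparison. For serum averaged over the genotypes, 2 of the 12 had an unadjusted p under 0.05 on the higher side and 1 on the lower, where all genes gave 5.79 and 3.46%. The 2 higher ones both remove adenosine. Adk, which phosphorylates it, was 18.7, 168 and 76.4 in WT Control ST against 439, 458, 151 and 166 in WT K/BxN ST, where the first 2 values are of the marker-high libraries and the other 2 lie within the range of the controls. The TASTPM libraries held 448, 152 and 57.2 after control serum and 634, 368, 173 and 372 after K/BxN serum, with overlapping groups. The averaged log2 fold change of Adk was 1.61 (SE 0.56, limma adjusted p = 0.530), and 1.00 (SE 0.72, limma adjusted p = 0.966) without the marker-high libraries. Ada, which deaminates it, had an averaged log2 fold change of 2.76 (SE 1.14, limma adjusted p = 0.536) at group means of 26.4 to 141 normalized counts, and 2.68 (SE 1.53, limma adjusted p = 0.966) without these libraries. Each Control ST group had an Ada library at 0, so both values depend on the 1 added to each count. Enpp2, autotaxin, a family member that makes lysophosphatidic acid, failed the filter. It was 608, 10.6, 82.4 and 152 in WT K/BxN ST against 0 in all 3 of WT Control ST, and the first 2 of these libraries are marker-high. In the second table the log2 fold change was 6.61 (SE 1.52, unadjusted p = 0.000608, limma adjusted p = 0.367), which depends on the 1 added to each count because the controls are at 0. In TASTPM, Enpp2 was 13.5, 68.5, 0 and 10.2 after K/BxN serum against 0, 4.44 and 7.27 after control serum. Enpp1, a nucleotide pyrophosphatase, was at -1.37 in WT (SE 0.54, limma adjusted p = 0.668). Between genotypes, Entpd5 was at 3.14 under Control ST (SE 1.49), and the nucleoside transporter genes Slc29a2 and Slc29a3 were at -1.13 (SE 0.70) and -0.24 (SE 0.29) under K/BxN ST, and at -1.77 (SE 0.97) and -0.07 (SE 0.15) without the marker-high libraries. The Entpd5 value depends on the 1 added to each count, with a WT Control ST library at 0. Nt5e (CD73), which makes adenosine from AMP and follows CD39 in the pathway, was 0 in all 3 WT Control ST libraries and at most 173 in any library.

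Of 29 genes of signalling downstream of the receptors, 27 were tested and 0 called, with medians of -0.09 for serum in WT and 0.05 in TASTPM. Kcnk13 (THIK-1), a potassium channel of microglia known for its role in surveillance and interleukin-1β release, was 3622, 3522 and 3890 in WT Control ST against 1742, 2638, 2700 and 2970 in WT K/BxN ST, with no overlap (3.71% of all genes, as above). In TASTPM it was 3721, 2711 and 2844 in Control ST and 924, 2464, 2042 and 2995 in K/BxN ST. Its averaged log2 fold change was -0.62 (SE 0.23, unadjusted p = 0.0159, limma adjusted p = 0.536), and -0.34 (SE 0.15, limma adjusted p = 0.966) without the marker-high libraries. Pycard, the inflammasome adaptor ASC, had -0.60 in WT (SE 0.21, limma adjusted p = 0.605), and Irf8, a transcription factor upstream of P2rx4 in spinal microglia, had -0.50 in WT (SE 0.27, limma adjusted p = 0.718). In the genotype comparisons Itgb1 under Control ST was at -0.48 (SE 0.19, limma adjusted p = 0.815), and under K/BxN ST Irf5 was at -0.26 (SE 0.16) and Rock1 at 0.30 (SE 0.18). Casp1 had a serum effect of 0.54 (SE 0.33) in TASTPM. With the marker-high libraries left out, Irf5 was at 0.0027 (SE 0.17), Rock1 at 0.15 (SE 0.27) and Casp1 at 0.25 (SE 0.37), while Pycard was at -0.68 (SE 0.25), Irf8 at -0.37 (SE 0.18) and Itgb1 at -0.48 (SE 0.16). Around the P2ry12 cluster, Med12l was 539 to 734 normalized counts in the marker-high libraries and 848 to 1728 in the others. The host gene was thus lower in the same libraries as P2ry12, as were 2.51% of all genes tested. It shares 294 exonic bases with P2ry12 on the opposite strand, and their part in its reads was not tested.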

How the data were processed

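Microglia were sorted at 2000 cells per sample, and cDNA was amplified and sequenced by the authors. Per the labels and the methods, reads were checked with FastQC 0.11.9, aligned with HISAT2 2.1 to mm39/GRCm39 and counted with featureCounts 1.5.2, and the authors normalized with DESeq2. The values they deposited are a normalized signal, the reads of a gene divided by 1 factor per library. They were whole multiples of 1 read in 100% of cases (tolerance 0.01), so reads were recovered. Of 14336 entries, 7 repeated identifiers were left out. P2ry1 and P2ry14 do not meet the count filter that the methods state, yet have values. All deposited columns could be joined to a group. TASTPM K/BxN ST replicates carry the numbers of the labels, and the other libraries are numbered in deposited order because their column numbers differ from the labels. The methods give 3 to 4 mice per group, but the labels do not tie libraries to animals, so p values measure the spread between libraries.

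log2(normalized count + 1) was fitted with limma 3.58.1 in R 4.3.3 (1 fit to the 4 groups, trend in the prior variance, Benjamini-Hochberg over 12645 genes). This was used because the deposited unit is a signal. For genes with libraries at 0, a fold change on this scale can be above or below the ratio of means. P2ry14, TASTPM against WT under K/BxN ST, was 21.1-fold on it against a ratio of means of 3.08. P2ry1, for serum in TASTPM, was 8.15-fold against 52.5. edgeR 4.0.16 and DESeq2 1.42.0 on recovered reads were alternatives, beside other scalings, filters, pseudocounts, variance models, a marker covariate and omission of libraries. Exact permutation tests were two-sided, with 35 splits of 4 against 3 (smallest p 0.0286), 20 of 3 against 3, 70 of 4 against 4 and 1225 within genotypes. The limma script was tested on simulated data. The planted changes were larger than the effects fitted for those of the 9 genes that passed the filter, with spread taken from Control ST libraries. That test does not give the power to detect effects of the size fitted here. Genes and lists were chosen with earlier results of these data known. By a fixed rule the text names the 9 genes, the listed pathway genes with the smallest p in each comparison among those that passed the filter, and the genes with the highest r over libraries. Adora2b fell under the rule for receptors with reads, while Nt5e, Enpp2 and Med12l were added after their values were seen. Exonic lengths and positions are from GENCODE M39 on GRCm39. A transgene of the TASTPM mice and a gene among those with the highest r are not reported here. Counting floors (3 reads) cover counting error only.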

Additional observations from a re-analysis of the deposited data

Results flagged for a closer look

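P2ry14 in WT K/BxN ST was flagged because 1 library stood far from the others. It had 105 normalized counts (104.779) in replicate 1 and 0 in the other 3, so the gap took the whole range of the group (Dixon's ratio 1). With the other 3 at 0, the ratio is 1 whatever the remaining value, so the flag follows from the zeros. In all, 18 groups of 4 were examined. The usual rate of about 1 flag in 20 by chance assumes normal values and does not apply to a gene at the detection floor.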

How the results depend on the processing

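Of 166 counts of called genes recomputed under the alternatives, 162 were unchanged at 0. The exceptions came from DESeq2 on recovered reads without a filter, which called 2 of the 9 genes for serum in WT, 2 for serum averaged over genotypes, 1 for the interaction and 2 for genotype under Control ST (P2ry1 and P2ry14, the interaction P2ry14 alone). Both are genes with a group at 0, and the log2 fold change of P2ry14 in the interaction turned from 2.14 to -20.07. With each library left out in turn, the counts of called genes stayed at 0, and the smallest adjusted p of any of the 7 genes was 0.334. Without TASTPM K/BxN ST replicate 1 the serum effects in TASTPM were -0.40 for P2ry12 and -0.62 for Adora3, and without WT K/BxN ST replicate 1 that of P2ry12 in WT was -0.37.

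Directions of the 7 tested genes depended on the scaling to microglia and on the marker-high libraries. Centred on the microglia markers, serum in WT turned to 0.24 (P2rx4), 0.016 (Entpd1) and 0.075 (Adora3), serum in TASTPM to 0.12 (P2ry6) and 0.13 (P2ry13), and the averaged effect to 0.17 (P2ry6), 0.019 (P2ry13) and 0.0074 (Entpd1). With the monocyte and neutrophil score as a covariate, P2ry13 turned to 0.16 in TASTPM and 0.040 averaged. Without the marker-high libraries, P2ry13 and Entpd1 in TASTPM turned to 0.18 and 0.052. Further changes of sign were in genes whose effect over all libraries and on the main scale was smaller than its standard error. The effect after the change of sign could be larger than that. Centred on the microglia markers, serum in TASTPM was 0.54 (SE 0.40) for P2rx4 and 0.39 (SE 0.25) for P2rx7, the averaged effect 0.39 (SE 0.28) and 0.28 (SE 0.18), and serum in WT 0.16 for P2rx7 and 0.23 for P2ry6. Without the marker-high libraries, P2rx7 was at 0.44 (SE 0.24) in TASTPM, 0.24 (SE 0.17) averaged and 0.04 (SE 0.24) in WT. The cause was not tested. No paired analysis was possible because the labels number the libraries 1 to 14 with no number shared between groups. P2ry1 and P2ry14 are limited by depth, with at most 6 libraries at 10 reads.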
